A study of Caenorhabditis elegans with 34 samples.

Results

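The nuclear hormone receptor genes of Caenorhabditis elegans are described here in whole animals from day 1 to day 12 of life. Members were all genes of the count matrix whose symbol is nhr followed by a number, a rule that uses no measured value, and it found 269 of 20222 genes. The matrix comes from a study of ageing in which populations of synchronized worms were collected every 24 h, and it holds 34 samples of whole body RNA. Day 1 to day 7 and days 9 to 11 had 3 samples each, while days 8 and 12 had 2 each.

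By the study's methods all strains carried spe-9(hc88), a temperature-sensitive allele that prevents self-fertilization, and the animals of this series were kept at the restrictive 25 °C, while the labels name no strain. The populations were synchronized with hypochlorite, and age was counted from the start of feeding. Each sample was a pool of animals from plates, unsorted, with no separation of tissues, and the labels give age but no developmental stage. Nothing in the labels says that replicates of a day came from separate cultures, so p-values measure the spread between these samples, which may be technical.

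Nuclear hormone receptors are transcription factors that bind DNA through a conserved zinc-finger domain and, in many cases, a small lipophilic ligand through a separate domain, which lets fats, sterols or foreign compounds change transcription. C. elegans has many more of them than mammals or flies, most of which arose from an HNF4-like ancestor by gene duplication within nematodes. A small set has orthologs in insects and vertebrates and is known for roles in moulting and development, and several of the others act in the intestine in fat metabolism, diet responses and defence against toxins and pathogens.

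Gene counts per sample summed to 19202058 to 27587987, and levels are given as CPM, counts scaled to a common total per sample after TMM normalization. The normalization factors lay between 0.756 and 0.882 on days 1 to 3 and between 0.911 and 1.23 on days 4 to 12, so scaling by library size alone gives a steeper rise over adult life (values below). On days 2 to 12, 181 of the 269 nhr genes were detected, that is had at least 5 counts in 75% of the 31 samples, or 67.3% against 68.6% of all genes. In any 1 sample between 178 and 219 of the 269 genes had at least 5 counts. Replicate 3 of day 1 stood apart from the other day 1 samples, with a root mean square log2 distance over 13785 genes of 0.56 and 0.74 to them against 0.48 between them. Replicate 3 of day 5 (0.70 and 0.64 against 0.46) and replicate 2 of day 4 (0.65 and 0.68 against 0.46) stood apart likewise. Each was left out in turn, and values without it are given where they change a call.

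The summed level of the 269 genes was 3754 ± 247 CPM on day 1 (SD, n = 3) and 1496 ± 77.2 CPM on day 2 (n = 3). It was 1388 ± 6.07 CPM on day 5 (n = 3), 1697 ± 72.0 CPM on day 8 (n = 2) and 1658 ± 172 CPM on day 12 (n = 2). The lowest day 1 sample, at 3469 CPM, was above the highest sample of any later day, and after TMM scaling the samples of day 5 lay below all those of days 6 to 12. Scaled by library size alone, the sum was 3101 CPM on day 1, 1202 CPM on day 2 and 1906 CPM on day 9, and the samples of day 5, at up to 1699 CPM, overlapped those of days 6, 7 and 12. In bulk samples such as these, fewer cells of a type and less RNA per cell cannot be told apart.

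**Figure D1:**
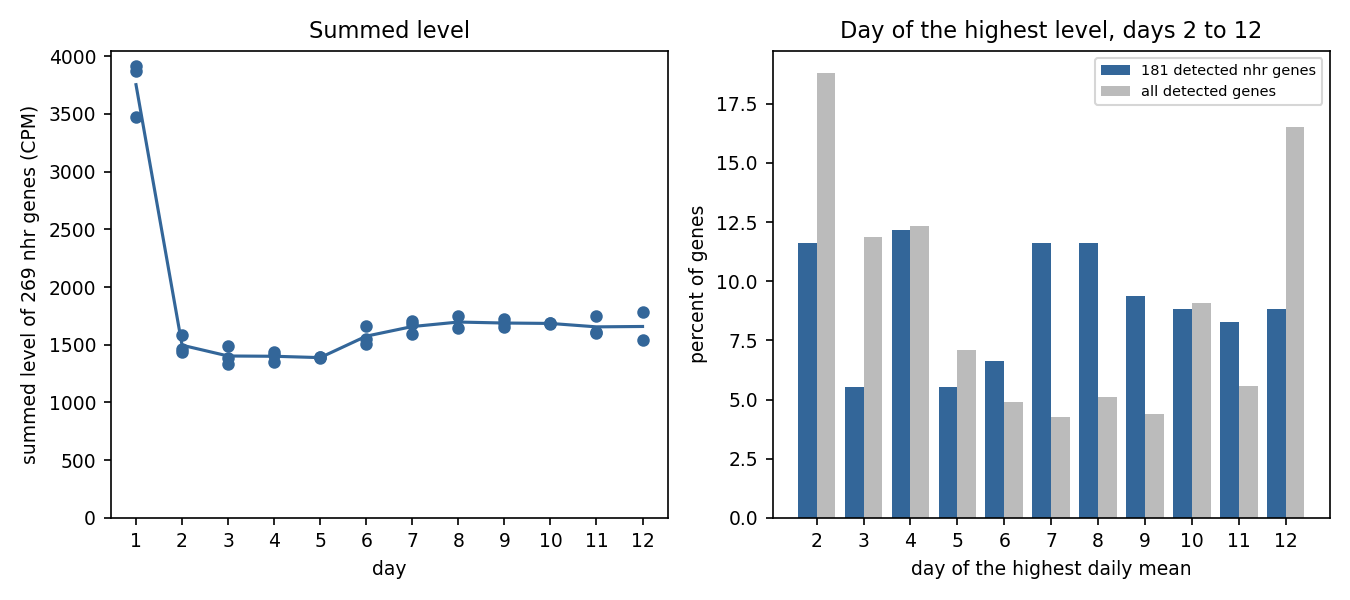
Left, summed CPM of the 269 nhr genes in each sample (points) with the daily mean (line), against the day; the sum was 3754 CPM on day 1 and 1388 to 1697 CPM on days 2 to 12. Right, percent of genes with their highest daily mean on each of days 2 to 12, for the 181 detected nhr genes and for all detected genes; 41.4% of nhr genes and 22.9% of all genes had it on days 7 to 10.

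Day 1 was compared with day 2 to find which receptors are read mainly in the youngest animals. Of the 269 nhr genes, 203 had enough counts for this test (75.5% against 73.7% of all genes), and 155 of them differed (76.4% against 70.8% of all 14911 genes tested; edgeR quasi-likelihood test, adjusted p under 0.01). On day 2, 147 were lower and 8 higher, or 72.4% and 3.94%, where 35.7% of all genes were lower and 35.1% higher. The median log2 difference, day 2 minus day 1, was -1.88 over nhr genes, a 3.68-fold fall, against -0.095 over all genes. The samples of the 2 days did not overlap in 181 nhr genes (89.2% against 83.5% of all genes), and all 3 day 1 samples were above all 3 day 2 samples in 171 of the 203 genes (84.2% against 43.8% of all genes). Of the 203 genes, 17 reached 5 counts in samples of 1 day alone, 13 of them on day 1, all called lower, and 4 on day 2, all called higher, so for these the filter favours the call. Of the other 186, 134 were lower and 4 higher. Without replicate 3 of day 1, 137 were lower and 7 higher of 190 tested, and without replicate 1 of both days, which leaves 4 samples, 80 were lower and 3 higher.

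**Figure D2:**
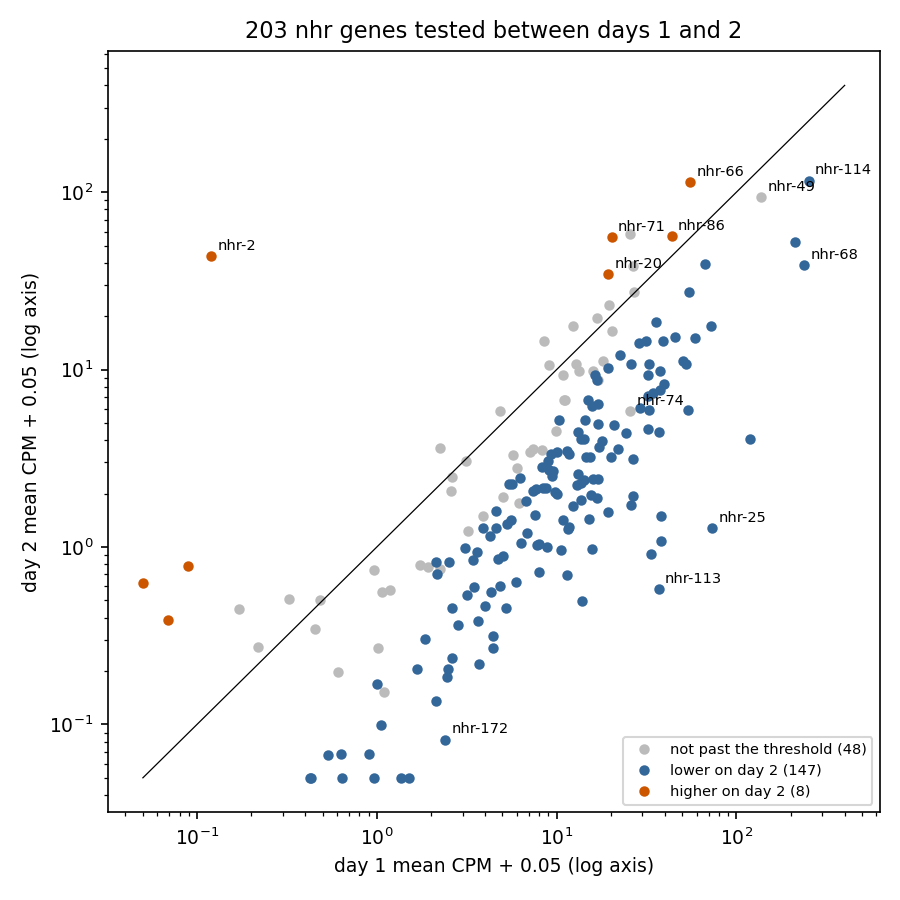
Mean CPM of each of the 203 tested nhr genes on day 2 (vertical, log axis, 0.05 added) against day 1 (horizontal, log axis, 0.05 added), 3 samples each; the line marks equal levels. 147 genes (blue) were lower on day 2, 8 (orange) were higher and 48 (grey) did not pass the threshold.

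Of the 9 tested receptors with orthologs in insects and vertebrates, 6 were lower on day 2 and none higher, with the call of nhr-6 lost in 4 of 14 alternatives. Over all tested nhr genes 72.4% were lower and 3.94% higher, and over all genes 35.7% and 35.1%. nhr-25, the ortholog of fly Ftz-F1 and vertebrate SF-1, acts in the epidermis and in moulting. It had 78.7, 78.2 and 62.5 CPM on day 1 and 0.903, 1.11 and 1.68 CPM on day 2. Every day 1 sample was thus far above every day 2 sample, and the log2 difference was -5.79 ± 0.26 (SE; edgeR quasi-likelihood test, adjusted p = 1.9e-06), a 55.5-fold fall. nhr-41, the ortholog of fly DHR78, had 112, 107 and 137 CPM on day 1 and 4.68, 3.13 and 4.22 CPM on day 2 (log2 -4.80 ± 0.20, adjusted p = 1.5e-06). The groups did not overlap, and nhr-41 was at most at 6.81 CPM in any later sample.

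Other members of this set differed between the day 1 replicates. nhr-85, related to Rev-Erb and fly E75, had 29.9, 36.7 and 10.8 CPM on day 1 and 1.06 to 2.04 CPM on day 2 (log2 -3.86 ± 0.51, edgeR adjusted p = 0.00028). Its exons share 835 of 2516 bases with npr-14 on the opposite strand, and the strand setting of the counting is not given in the sources used here, so its reads cannot be told apart from those of npr-14. nhr-91, related to vertebrate GCNF, had 14.2, 12.3 and 88.1 CPM on day 1 and 1.12 to 1.83 CPM on day 2 (log2 -4.62 ± 0.88, adjusted p = 0.0019). The groups did not overlap for either gene, but replicate 3 of day 1 was the lowest of its day for nhr-85 and the highest for nhr-91. Without that sample the log2 differences were -4.30 for nhr-85 and -3.17 for nhr-91, while nhr-91 had an adjusted p of 0.014 without replicate 1 of both days.

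nhr-23, the ortholog of vertebrate ROR and fly DHR3 and a driver of each moult, was below its day 2 level in replicates 1 and 2 of day 1 alone. It had 9.94, 7.50 and 59.4 CPM on day 1 and 55.3, 60.9 and 57.5 CPM on day 2. The third day 1 sample was inside the range of day 2, and the difference was not past the threshold (log2 1.27 ± 0.73, edgeR adjusted p = 0.14). Without this sample the log2 difference was 2.75 with an adjusted p of 4.4e-06, so the lack of a call rests on 1 library. nhr-48, related to fly DHR96, was at 23.8 to 32.6 CPM on day 1 and 26.2 to 28.8 CPM on day 2, with a log2 difference of 0.13 ± 0.17 (adjusted p = 0.50).

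Of the 12 receptors of metabolism, 8 were lower on day 2 and 1 was higher, with the calls of nhr-10, nhr-64 and nhr-79 lost in 6, 2 and 2 of 14 alternatives. The share of lower genes was near that of all tested nhr genes (72.4% lower, against 35.7% of all genes). nhr-68, which activates the propionate shunt together with nhr-10, had 270, 254 and 190 CPM on day 1 and 33.9, 39.5 and 43.3 CPM on day 2 (log2 -2.52 ± 0.18, edgeR adjusted p = 1.1e-05). nhr-114, which acts in the methionine cycle, had 240, 230 and 288 CPM on day 1 and 101, 102 and 146 CPM on day 2 (log2 -1.03 ± 0.18, adjusted p = 0.0012). For both genes the days did not overlap, though nhr-114 had an adjusted p of 0.020 without replicate 1. nhr-80, which promotes the synthesis of unsaturated fatty acids, fell from 42.7 to 60.7 CPM to 8.91 to 13.3 CPM (log2 -2.09 ± 0.21, adjusted p = 6.2e-05). nhr-49, the HNF4-type receptor that drives fat breakdown on fasting, was at 120, 137 and 155 CPM on day 1 and 88.5, 99.8 and 92.0 CPM on day 2, a log2 difference of -0.46 ± 0.14 that did not pass the threshold (adjusted p = 0.015).

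Of the receptors of stress, toxins and pathogens, 4 of 7 were lower on day 2 and 1 was higher. Over all tested nhr genes 72.4% were lower, and over all genes 35.7%. nhr-8, which acts in resistance to toxins and in cholesterol handling, had 24.3 to 47.2 CPM on day 1 and 4.15 to 7.68 CPM on day 2 (log2 -2.39 ± 0.35, edgeR adjusted p = 0.00044). nhr-45 fell from 46.8 to 65.3 CPM to 5.14 to 7.17 CPM (log2 -3.10 ± 0.23, adjusted p = 1.4e-05), and nhr-14, a repressor of iron uptake, from 30.2 to 42.4 CPM to 6.02 to 10.5 CPM (log2 -2.21 ± 0.27, adjusted p = 0.00017). No sample of day 2 reached the range of day 1 in any of the 3 genes. Without replicate 3 of day 1, nhr-176 was lower on day 2 as well (log2 -1.36, adjusted p = 0.0048), as was nhr-17 outside this list (log2 -0.74, adjusted p = 0.0083).

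The deepest falls by rank included genes with almost no reads left on day 2. nhr-157 and nhr-167 had no count in any day 2 sample, after 80 and 73 counts summed over day 1, and were at least 28.9- and 26.4-fold lower when day 2 is set at a floor of 3 counts over the group. nhr-172 had 123 counts over day 1 and 2 over day 2, a ratio of 66.7 with a 95% counting interval of 18.1 to 557. Setting every gene with no count on 1 of the days at this floor leaves the median of the family unchanged, since each floor ratio lies beyond it. The remaining genes of this rank, nhr-113, nhr-73, nhr-245 and nhr-259, all lie within a short stretch of chromosome I described below.

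The 8 genes that were higher on day 2 included 1 with a change of another order. nhr-2, which is required in early embryos, had 4 counts over the 3 samples of day 1 (0, 0.152 and 0.0589 CPM) and 2575 over those of day 2 (42, 47.9 and 40.2 CPM), a ratio of 593 with a 95% counting interval of 231 to 2180. In later samples it was between 20.02 and 44.7 CPM. nhr-71 rose from 16.5 to 24.9 CPM to 53.4 to 60.1 CPM (log2 1.56 ± 0.18, edgeR adjusted p = 0.00012), and nhr-66, which works with nhr-49 in lipid breakdown, from 52.4 to 58.2 CPM to 108 to 119 CPM (log2 1.13 ± 0.11, adjusted p = 4.6e-05). nhr-20 rose from 18 to 21.6 CPM to 33.0 to 37.1 CPM (log2 0.92 ± 0.14, adjusted p = 0.00064). In these 4 genes no day 1 sample reached the range of day 2. nhr-86, a sensor of a Pseudomonas metabolite, went from 39.2 to 47.2 CPM to 52.1 to 60.8 CPM (log2 0.47 ± 0.12, adjusted p = 0.0081), and its call was lost in 9 of 14 alternatives, among them the fit without replicate 3 of day 1 and those without each replicate number. The other 3, nhr-236, nhr-249 and nhr-257, were at most at 0.118 CPM on day 1 and at 0.319 to 0.763 CPM on day 2. Like nhr-2, they had enough counts for the test only through day 2, where they were high. nhr-257 had no count on day 1 and 34 on day 2, 10.4-fold more against the floor of 3 counts, with a lower 95% counting limit of 8.04. nhr-236 had 2 and 43 counts, a ratio of 19.8 with a counting interval of 5.16 to 169. The calls of nhr-236, nhr-249 and nhr-257 were lost in 1, 4 and 2 of 9 alternatives, for nhr-249 among them the fit without replicate 3 of day 1.

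Marker genes of several tissues moved between the same days. All 10 oocyte and germ line markers were higher on day 2, with a summed level of 32.5 to 67.1 CPM on day 1 and 12720 to 15334 CPM on day 2. Of 5 embryonic markers 4 were tested and all 4 were higher. tbx-37, tbx-38 and pes-10 went from 0 to 17.3, 22.3 and 24.2 CPM, and end-3 from 0 to 0.503 CPM. The fifth, end-1, was not tested and went from 0.343 to 0.0651 CPM. All 6 neuronal, 5 of 7 intestinal and 4 of 6 epidermal markers were lower on day 2. Of the body wall muscle markers 2 of 5 were lower, and of the pharyngeal markers 1 of 4, with none higher in either list. The cuticle collagen gene rol-6 went from a mean of 2011 CPM to 0, and the adult collagen gene col-19 from 0.338 to 1682 CPM. Their part in the differences of the nhr genes was not tested, and age and developmental stage cannot be told apart between these days.

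The second question was how the receptors change over days 2 to 12. Of the 181 detected nhr genes, 130 changed with age, that is had an adjusted p under 0.01 for at least 1 of the 3 coefficients of a cubic curve (edgeR quasi-likelihood test), or 71.8% against 80.3% of all detected genes. The linear coefficient was positive in 85 (47.0% against 36.9% of all genes) and negative in 39 (21.5% against 33.9%), with a median of 0.046 log2 per day over nhr genes and 0.0063 over all. Scaled by library size alone, 109 rose and 21 fell, while the median of all genes moved to 0.050 log2 per day. The difference between the medians of nhr genes and all genes was 0.040 and 0.039 log2 per day under the 2 scalings.

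More of the called curves bent down than up. The quadratic coefficient was past the threshold and negative, that is the curve was arched, in 57 of 181 nhr genes (31.5% against 18.6% of all genes) and positive in 5 (2.76% against 14.6%). The highest daily mean fell on days 7 to 10 in 75 of 181 genes (41.4% against 22.9% of all genes), and the lowest fell on days 2 to 4 in 106 (58.6% against 42.2%). Of the nhr genes tested in both fits, 59 of 179 were lower on day 2 than on day 1 and higher on days 8 and 9 than on days 2 and 3 (33.0% against 13.9%). The day 2 and day 3 samples enter this count, and day 2 enters both comparisons, so a low value on day 2 favours both calls.

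Of the 9 detected receptors with orthologs outside nematodes, 7 rose and none fell (36.9% and 33.9% of all detected genes). nhr-67, the ortholog of tailless, which acts in neurons and in the invading anchor cell, had 0.458 to 0.531 CPM on day 2 and 6.05, 7.66 and 8.20 CPM on day 9. Its linear coefficient was 0.36 ± 0.029 log2 per day (edgeR quasi-likelihood test, adjusted p = 2.8e-12), and it was 13.4-fold higher on days 8 and 9 than on days 2 and 3. On day 12 it was at 5.27 and 3.60 CPM, below every day 9 sample. Unlike most of this set it was low on day 1 too, at 0.883 to 1.22 CPM.

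nhr-25 regained a part of its day 1 level. It was between 0.683 and 1.30 CPM in every sample of days 3 and 4, between 5.18 and 6.33 CPM on day 5, at 9.43 and 15 CPM on day 8 and at 6.71 and 9.98 CPM on day 12. The samples of day 5 and later lay above those of days 2 to 4 without overlap, and none reached the 62.5 CPM of the lowest day 1 sample. The linear coefficient was 0.35 ± 0.034 log2 per day (edgeR adjusted p = 8.6e-11), with an 11.2-fold difference between days 8 and 9 and days 2 and 3. nhr-91 followed a similar course, from 1.12 to 1.83 CPM on day 2 to 7.95 and 9.09 CPM on day 8 (0.25 ± 0.024 log2 per day, adjusted p = 9.4e-11). nhr-85 went from 1.06 to 2.04 CPM on day 2 to 5.06 to 6.99 CPM on day 10 (0.25 ± 0.029, adjusted p = 5.9e-09), again with reads that may belong to npr-14. nhr-6, the NR4A receptor that shapes the spermatheca, went from 0.560 to 1.22 CPM on day 2 to 5.96 and 6.22 CPM on day 8 (0.21 ± 0.022, adjusted p = 5.4e-10).

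nhr-23 and nhr-41 rose less. nhr-23 was at 44.1 to 61.7 CPM on day 3 and at 77.6 and 81.1 CPM on day 12 (0.067 ± 0.018 log2 per day, edgeR adjusted p = 0.0015), with its lowest value of days 2 to 12, 14.5 CPM, in replicate 3 of day 5. Its call was lost without replicate 2 and when the trend with transcript length was removed, which gave up to 0.29 as adjusted p. nhr-41 rose by 0.071 ± 0.022 log2 per day (adjusted p = 0.0051), a call lost in 7 of 15 alternatives, including the fits without replicate 2 and without replicate 3. nhr-111, the remaining gene of the set, was not detected and had no count in any sample of days 1 to 4.

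**Figure D3:**
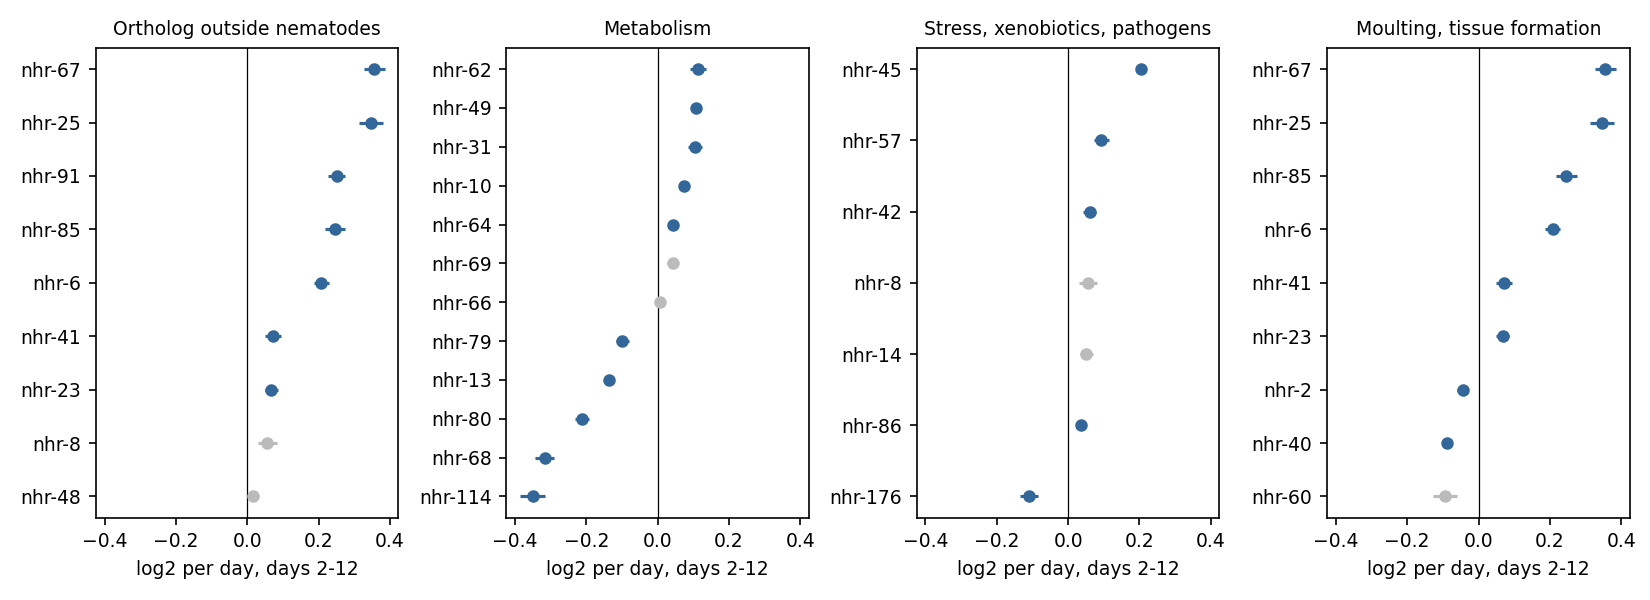
Linear coefficient of age over days 2 to 12 in log2 per day (points) with its standard error (bars) for the detected genes of 4 lists of receptors; blue points had an adjusted p under 0.01 and grey points did not. nhr-67 and nhr-25 were the highest at 0.36 and 0.35, and nhr-114 and nhr-68 the lowest at -0.35 and -0.32.

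Of the 12 metabolic receptors 5 rose and 5 fell, near the shares of all detected genes (36.9% rose and 33.9% fell). nhr-114 had the steepest fall of the genes named by their coefficients, from 101, 102 and 146 CPM on day 2 to 32.1, 38.4 and 41.2 CPM on day 3 and 6.53 to 11.7 CPM on day 4. It was at 4.50 and 5.41 CPM on day 12, and the highest sample from day 4 on was replicate 2 of day 5, at 25.0 CPM. The linear coefficient was -0.35 ± 0.036 log2 per day (edgeR quasi-likelihood test, adjusted p = 2.8e-10), and levels on days 2 and 3 were 8.03-fold those of days 8 and 9. nhr-68 went from 33.9 to 43.3 CPM on day 2 to 5.99 and 2.26 CPM on day 12 (-0.32 ± 0.026, adjusted p = 2.4e-12). Its day 8 samples were far apart, at 5.41 and 16.2 CPM. nhr-80 went from 8.91 to 13.3 CPM on day 2 to 3.24 and 4.36 CPM on day 12 (-0.21 ± 0.019, adjusted p = 1.8e-11).

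nhr-13, which binds nhr-49 and acts on fatty acid desaturases, first reached 27.3 to 34.1 CPM on day 3 and was at 12.2 and 13.1 CPM on day 12 (-0.14 ± 0.012 log2 per day, edgeR adjusted p = 1.0e-11). nhr-79 was the last of the falling 5, from 4.30 to 7.53 CPM on day 2 to 2.07 and 3.60 CPM on day 12 (-0.099 ± 0.018, adjusted p = 1.2e-05). The day 12 samples of nhr-13 were below all those of days 2 to 7, and those of nhr-79 below all of days 2 to 8.

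nhr-49 rose over the same days, from 88.5, 99.8 and 92.0 CPM on day 2 to 156, 161 and 162 CPM on day 9 and 175 and 174 CPM on day 12. Its linear coefficient was 0.11 ± 0.0091 log2 per day (edgeR adjusted p = 3.9e-12), and every sample of day 7 or later was above every sample of days 2 to 5. Per kilobase of exon it was the highest of the family, with a mean of 61.9 CPM per kb on days 2 to 12, followed by nhr-86 at 49.4, nhr-61 at 28.7, nhr-274 at 25.0 and nhr-20 at 21.8. nhr-31, which sustains proton pump genes in the excretory cell, had a mean of 17.5 CPM on day 2 and 16.2 CPM on day 9. It was at 5.21 to 6.58 CPM on day 4 and 17.3 to 19.6 CPM on day 11. It thus fell after day 2 and then returned to about its day 2 level. Its linear coefficient was 0.10 ± 0.020 log2 per day (edgeR adjusted p = 3.2e-05). That call was lost in 1 of 15 alternatives, with the length trend removed and a replicate block (adjusted p = 0.015). nhr-62, needed for longevity on a restricted diet, had a mean of 3.38 CPM on day 2 and was at 1.43 to 1.67 CPM on day 4. On day 11 it was at 4.18 to 5.28 CPM (0.11 ± 0.022 log2 per day, adjusted p = 2.5e-05).

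nhr-10 and nhr-64 were the other rising genes of this list. nhr-10 went from 16.7 to 19.9 CPM on day 2 to 29.2 to 35.2 CPM on day 9 (0.074 ± 0.010 log2 per day, edgeR adjusted p = 1.6e-07), while nhr-68, which acts with it in the propionate shunt, fell. nhr-64 rose by 0.043 ± 0.014 log2 per day (adjusted p = 0.0053), a call lost without replicate 1, without replicate 2 and without replicate 3. nhr-69 (0.042 ± 0.016, adjusted p = 0.016) and nhr-66 (0.0061 ± 0.010, adjusted p = 0.59) were not past the threshold, though nhr-69 passed it without replicate 3 of day 5 (adjusted p = 0.0078) and without replicate 2 of day 4 (0.0046).

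Among the receptors of stress, toxins and pathogens, 4 of 7 rose and 1 fell (36.9% and 33.9% of all detected genes). nhr-45, which acts in responses to mitochondrial stress, was at 4.58 to 5.60 CPM on day 3 and 16.3 to 21 CPM on day 10 (0.20 ± 0.014 log2 per day, edgeR adjusted p = 8.8e-14), and it was 3.11-fold higher on days 8 and 9 than on days 2 and 3. The day 10 samples were above all of days 2 to 6 but did not reach the 46.8 CPM of the lowest day 1 sample. nhr-57, a target of the hypoxia factor HIF-1, rose by 0.094 ± 0.021 (adjusted p = 0.00016), a call lost without replicate 2. nhr-42 rose by 0.060 ± 0.017 (adjusted p = 0.0022), lost without replicate 2 and without replicate 3, and nhr-86 by 0.036 ± 0.0099 (adjusted p = 0.0017), lost without replicate 1 and without replicate 3. nhr-176, which drives breakdown of the drug thiabendazole, fell by 0.11 ± 0.025 log2 per day (adjusted p = 0.00021), lost without replicate 1 and with scaling by library size alone.

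Of the 9 receptors of moulting and tissue formation, 6 rose and 2 fell (36.9% and 33.9% of all detected genes). In this list 6 of the 9 are also in the list of genes with orthologs outside nematodes. nhr-40, which acts in muscle development, went from 10.1 to 11.4 CPM on day 2 to 5.99 and 7.19 CPM on day 12 (-0.089 ± 0.013 log2 per day, edgeR adjusted p = 1.5e-07). nhr-2 had a coefficient of -0.045 ± 0.014 (adjusted p = 0.0054), a call lost in 6 of 15 alternatives, among them library size alone and the fits without replicate 2 and without replicate 3. The epidermal receptor nhr-60 was at 0.230 to 1.22 CPM throughout days 2 to 12, near the limit of detection (-0.094 ± 0.034, adjusted p = 0.013, and 0.0035 without replicate 2 of day 4).

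The steepest rises of the family, chosen by their coefficients, included several genes with few counts on the youngest days. nhr-172 had 0, 0.0963 and 0 CPM on day 2, no more than 0.258 CPM on days 3 and 4, and 2.76, 3.11 and 2.80 CPM on day 6. Its level was highest on day 7, at 3.15 to 4.15 CPM (0.67 ± 0.043 log2 per day, edgeR adjusted p = 8.2e-15). nhr-213 (0.37 ± 0.032), nhr-115 (0.31 ± 0.030) and nhr-178 (0.31 ± 0.034) were likewise at most at 1.40 CPM on days 2 and 3 and at least at 1.19 CPM in every sample from day 9 on. For nhr-18 and nhr-19 the counts were higher. nhr-18 went from 1.73 to 2.39 CPM on day 2 to 15.9 and 20.6 CPM on day 12 (0.33 ± 0.019, adjusted p = 8.9e-16), and nhr-19 from 1.81 to 2.94 CPM to 13.6 and 18 CPM (0.31 ± 0.018, adjusted p = 1.5e-15). In both genes every sample of day 7 or later was above every sample of days 2 to 5.

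The other steep falls were in nhr-74 (-0.34 ± 0.038 log2 per day), nhr-161 (-0.17 ± 0.022), nhr-76 (-0.16 ± 0.014), nhr-55 (-0.14 ± 0.019) and nhr-156 (-0.14 ± 0.020). nhr-76, which acts in the intestine in fat loss driven by serotonin, was at 10.3 to 19.1 CPM on day 2, 15 to 17.1 CPM on day 5 and 4.41 and 8.28 CPM on day 12 (edgeR adjusted p = 9.7e-12). nhr-156 fell early, from 5.05 to 7.12 CPM on day 2 to 1.72 to 2.30 CPM on day 4, and no later sample exceeded 2.80 CPM (adjusted p = 1.4e-07).

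**Figure D4:**
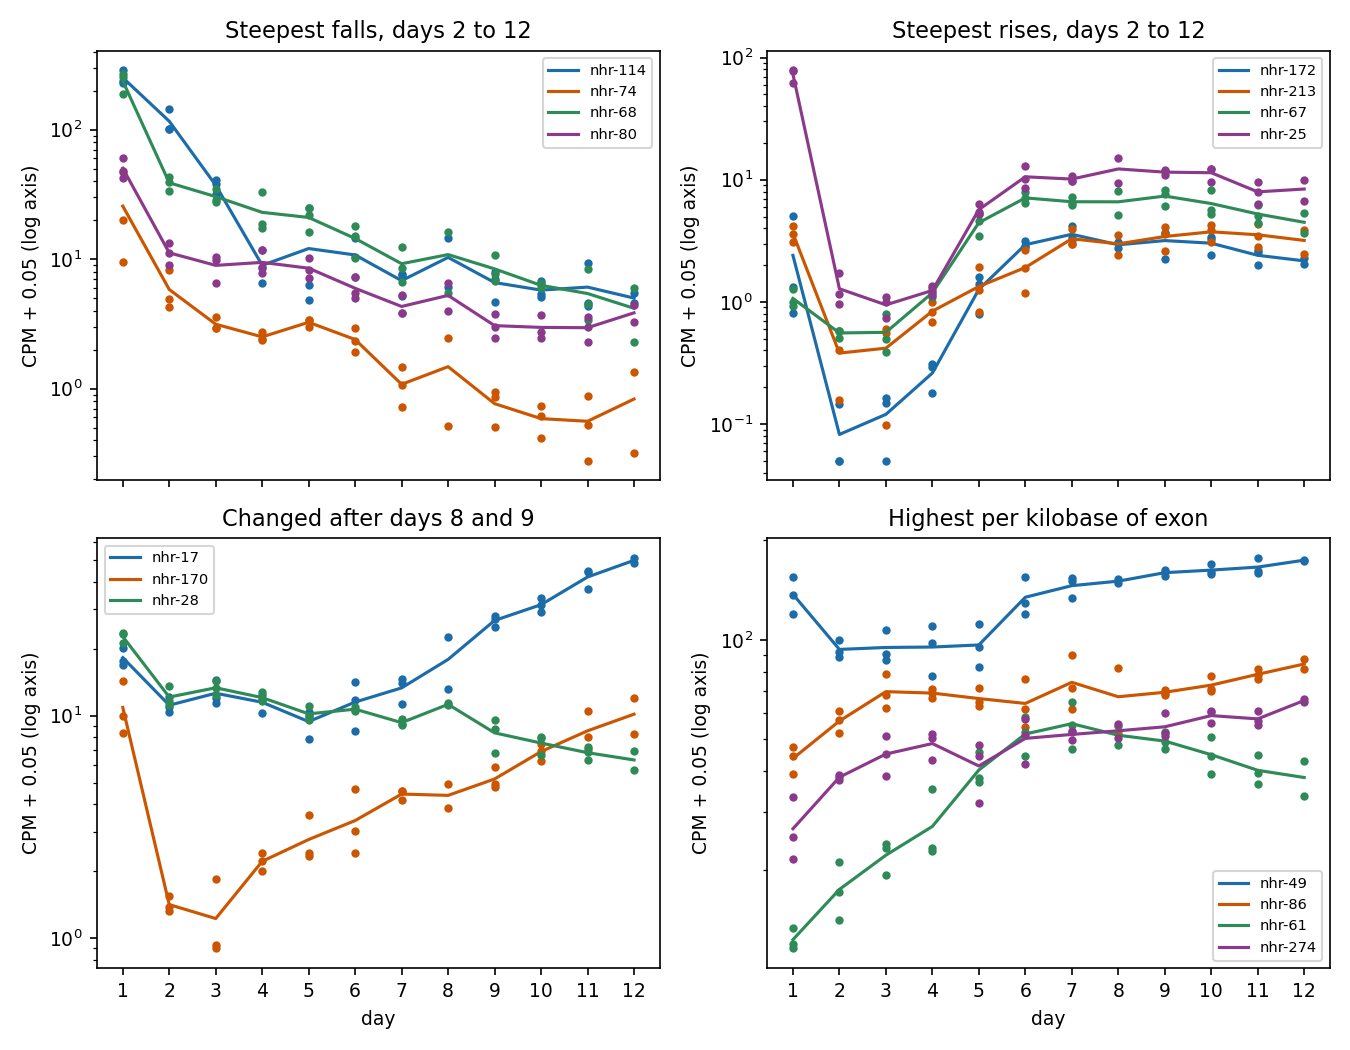
CPM plus 0.05 on a log axis against the day for 15 nhr genes in 4 panels, with each sample as a point and daily means as lines. nhr-114 went from 101 to 146 CPM on day 2 to 4.50 and 5.41 CPM on day 12, nhr-25 dropped from 62.5 to 78.7 CPM on day 1 to 0.903 to 1.68 CPM on day 2 and reached 9.43 and 15 CPM on day 8, and nhr-17 was highest on day 12.

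The middle of the series was set against its start by comparing days 8 and 9 with days 2 and 3. These days were chosen knowing, from earlier results of these data, that many nhr genes are highest about day 9. The choice favours higher calls in this contrast. Of 181 nhr genes, 100 differed (edgeR quasi-likelihood test, adjusted p under 0.01; 55.2% against 57.5% of all genes). There were 77 higher and 23 lower, or 42.5% and 12.7%, where 29.9% and 27.7% of all genes were higher and lower. The median log2 difference was 0.45 over nhr genes and 0.046 over all genes. With library size alone 116 were higher and 7 lower, and the medians were 0.91 and 0.52, so the gap between them stayed at 0.40. Without replicate 1 the number of lower genes went to 7, and without replicate 3 to 13. The genes with the largest differences were mostly those of the linear trend, with nhr-172, nhr-67, nhr-25, nhr-213, nhr-18 and nhr-19 leading the higher genes and nhr-114, nhr-74, nhr-68, nhr-156, nhr-80 and nhr-15 the lower ones. nhr-15 went from 1.68 to 3.40 CPM on days 2 and 3 to 0.423 to 1.56 CPM on days 8 and 9 (log2 -1.20 ± 0.30, adjusted p = 0.0013), a call lost without replicate 1 and with library size alone. Without replicate 2 of day 4, nhr-14 (log2 0.57, adjusted p = 0.0051) and nhr-41 (log2 0.59, adjusted p = 0.0093) were higher as well.

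Few genes passed the threshold between the middle and the end of the series, where days 8 and 12 had 2 samples each. Between days 8 and 9 and days 11 and 12, 3 of 181 nhr genes differed (1.66% against 1.07% of all genes), 2 of them higher and 1 lower (0.462% and 0.613% of all genes), and 31 had an unadjusted p under 0.05 (17.1% against 29.9% of all genes). The log2 difference was negative in 137 of the 181 genes, with a median of -0.19 against -0.0024 over all genes. Days 8 and 9 were chosen as days of high nhr levels, which favours a negative sign. nhr-17 was at 13.1 and 22.6 CPM on day 8, 25.1 to 27.9 CPM on day 9, 37.1 to 44.8 CPM on day 11 and 48.5 and 51.1 CPM on day 12 (log2 1.08 ± 0.14, edgeR quasi-likelihood test, adjusted p = 0.00082). Every sample of days 11 and 12 was above every sample of days 8 and 9. Its exons share 67 of 1598 bases with the neuropeptide-like gene nlp-76 on the same strand, so some of these reads may belong to that gene.

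nhr-170 went from 3.80 to 5.80 CPM on days 8 and 9 to 7.02 to 12.0 CPM on days 11 and 12 (log2 0.99 ± 0.20, edgeR adjusted p = 0.0070). nhr-28 went from 6.75 to 11.3 CPM to 5.63 to 7.21 CPM (log2 -0.55 ± 0.11, adjusted p = 0.0070). The groups did not overlap for nhr-170 and overlapped for nhr-28. No nhr gene was past the threshold without replicate 1 or without replicate 2, and 1 was without replicate 3. The calls of nhr-170 and nhr-28 were lost in 7 and 5 of 15 alternatives, library size alone among them, with adjusted p up to 0.36 and 0.35.

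The family is crowded on the genome, and the arrangement was compared with the courses. By the annotation (Ensembl, WBcel235), 167 of the 269 genes lie on chromosome V, 33 on IV, 23 each on I and X, 15 on II and 8 on III. There are 159 members with another member within 10 kb, and 85 lie in 12 runs of at least 4. The Pearson correlation of daily courses over days 2 to 12 had a median of 0.62 over 146 neighbouring pairs and 0.17 over 16144 other pairs, a description only, since genes share all libraries and near-identical copies can share reads. On chromosome V 56 of 113 detected members rose and 22 fell, and on the other chromosomes 29 of 68 rose and 17 fell. Over the whole family 47.0% rose and 21.5% fell, against 36.9% and 33.9% of all genes.

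The runs are described beside the shares of the family, and differences from these shares were not tested. Of tested nhr genes, 72.4% were lower on day 2 (35.7% of all genes). On days 8 and 9, 42.5% were higher and 12.7% lower (29.9% and 27.7% of all genes). The largest run, 12 genes at V:451451-497297, was detected in full, with 10 of 12 lower on day 2 than on day 1. On days 8 and 9 against days 2 and 3 only 3 of its genes were higher and 2 lower. The 9 genes at V:2210510-2235180, among them nhr-18, were all lower on day 2, and 6 were higher on days 8 and 9 with none lower. At V:6980587-7000651, 6 of 7 genes were higher on days 8 and 9 and nhr-161 was lower, a call lost without each of the 3 replicate numbers. By contrast, of 8 genes at V:15674007-15702363 only 1 was detected, and none of the 4 at X:12695229-12808318 was.

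A set of 6 genes at I:11429014-11480071, chosen after its values were seen, had the same order of replicates on day 1. nhr-73 had 25.7, 7.61 and 79.98 CPM on day 1 and 0.626 to 1.48 CPM on day 2 (log2 -5.09 ± 0.91, edgeR quasi-likelihood test, adjusted p = 0.0013). nhr-245 had 23.2, 6.54 and 70.5 CPM on day 1 and 0.481 to 1.37 CPM on day 2 (log2 -5.17 ± 0.94, adjusted p = 0.0014). nhr-113 had 35.0, 16.2 and 59.3 CPM and then 0.193 to 0.814 CPM (log2 -6.02 ± 0.66, adjusted p = 9.8e-05). In all 3 genes, and in nhr-74, nhr-244 and nhr-259, replicate 3 of day 1 was the highest sample and replicate 2 the lowest of that day. This order is not particular to the stretch, since nhr-91 and nhr-23, which lie elsewhere, had it too. Replicates 2 and 3 were also the farthest apart of day 1 over all genes (root mean square log2 distance 0.74). The share of genes with this order was not counted.

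Within this set the fall from day 1 to day 2 was past the threshold for 4 genes. nhr-259 went from 5.27 to 22.9 CPM to 0.0963 to 0.662 CPM (log2 -4.85 ± 0.75, edgeR adjusted p = 0.00064). nhr-74 went from 9.53 to 47.5 CPM to 4.20 to 8.24 CPM (log2 -2.06 ± 0.58, adjusted p = 0.012), and nhr-244 from 2.03 to 11.7 CPM to 1.01 to 2.49 CPM (log2 -1.74 ± 0.66, adjusted p = 0.040), with overlapping samples for nhr-244. Without replicate 1 the adjusted p of nhr-73, nhr-245 and nhr-259 was 0.020, 0.022 and 0.014. Without replicate 3 of day 1 the log2 differences of nhr-73, nhr-245 and nhr-113 were -3.98, -4.08 and -5.57. The spread between the day 1 samples was thus larger in this set than in nhr-25, though the days stayed apart in these 3 genes.

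**Figure D5:**
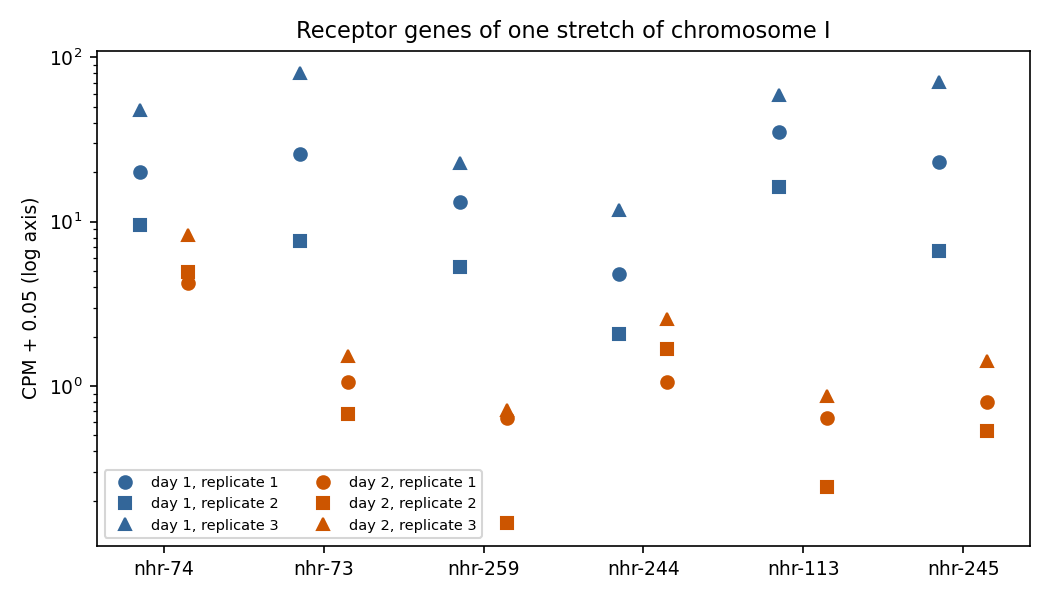
CPM plus 0.05 (log axis) of 6 nhr genes at I:11429014-11480071 in each replicate of day 1 (blue) and day 2 (orange), in chromosomal order. In each gene replicate 3 of day 1 (triangle) was the highest and replicate 2 (square) the lowest of its day, as in nhr-73 with 79.98 and 7.61 CPM.

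The genes around the receptors were read from lists of ligand synthesis, cofactors and targets. Of 5 receptors with other names 3 were detected, daf-12, sex-1 and unc-55, and all 3 rose. daf-12, the receptor for the sterol dafachronic acid, rose by 0.18 ± 0.027 log2 per day (edgeR quasi-likelihood test, adjusted p = 3.4e-07), and sex-1 by 0.054 ± 0.016 (adjusted p = 0.0029). Of the enzymes that make dafachronic acid, daf-9 fell by 0.096 ± 0.026 (adjusted p = 0.0014) and daf-36 by 0.29 ± 0.028 (adjusted p = 7.9e-11), though the dehydrogenase dhs-16 rose by 0.097 ± 0.029 (adjusted p = 0.0030). The sterol transporters ncr-1 (0.30 ± 0.021) and ncr-2 (0.38 ± 0.023), the corepressor din-1 (0.21 ± 0.027) and the mediator subunit mdt-15 (0.074 ± 0.021), a partner of nhr-49, rose. In all, 5 of the 8 detected rose and 2 fell (36.9% and 33.9% of all detected genes).

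Of 16 genes known as receptor targets, 4 rose and 10 fell with age (36.9% and 33.9% of all detected genes). The fat genes acs-2 (-0.37 ± 0.049 log2 per day) and fat-7 (-0.54 ± 0.042), targets of nhr-49, fell while nhr-49 rose, and nhr-80, which also acts on fat-7, fell. The propionate shunt genes acdh-1 (-0.42 ± 0.070) and hphd-1 (-0.41 ± 0.041), targets of nhr-10 and nhr-68, fell, from means of 1017 and 515.9 CPM on day 2 to 62.5 and 34.0 CPM on day 9. irg-4 and irg-5, targets of nhr-86, fell by 0.46 ± 0.077 and 0.44 ± 0.038. The moulting genes mlt-10 (0.18 ± 0.028) and noah-1 (0.34 ± 0.035) rose, and so did fmo-2 (0.29 ± 0.067), a target of nhr-49, and the ferritin gene ftn-1 (0.32 ± 0.036). Each had an adjusted p of at most 0.00021 by the edgeR quasi-likelihood test.

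Tissue markers moved over the same days. All 7 intestinal markers fell with age, with a summed level of 1983 CPM on day 2 and 185 CPM on day 12, and 5 of 10 oocyte and germ line markers and 4 of 5 body wall muscle markers fell. In contrast, 3 of 4 pharyngeal markers, 2 of 6 neuronal markers and both detected sperm markers rose and none of them fell. Of 5 embryonic markers 3 fell and 1 rose, and of 4 detected epidermal markers 2 fell and 1 rose. The part of these changes in the courses of the nhr genes was not tested.

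Each of the 88 nhr genes not detected on days 2 to 12 had a count in at least 1 of the 34 samples. Of these, 24 had enough counts for the test of day 2 against day 1, and 16 were lower and 2, nhr-249 and nhr-257, higher on day 2. The 88 genes were picked for low counts on days that include day 2, which favours lower calls, so this split is no result about them. Of the 88 genes, 19 had at least 5 counts in all 3 day 1 samples. nhr-235 had 127 to 150 counts on day 1, 8.38, 6.44 and 8.36 CPM, and 0.578 to 1.22 CPM on day 2 (log2 -2.90 ± 0.34, edgeR quasi-likelihood test, adjusted p = 0.00014), and no sample of day 5 or later exceeded 0.518 CPM. At the other end nhr-111 had no count on days 1 to 4 and at most 0.148 CPM later. The genes that entered no test did not pass the count filters, so differences between days were not tested in them. Among these, nhr-174 had no count on day 1 and a mean of 7.42 counts over days 2 to 12, with its highest value, 30, in a day 8 sample. Likewise nhr-39 had at most 4 counts on day 1 and a mean of 10.3 over days 2 to 12, with its highest, 36, in a day 12 sample. Each gene had a count in only 23 of the 31 samples of days 2 to 12, and the highest values are single samples.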

How the data were processed

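Poly(A)-enriched, rRNA-depleted whole body RNA was sequenced at each age. The authors deposited raw counts, whole-number reads per gene, without normalization. Per the submitters' processing notes, STAR 2.7.3a, featureCounts and the build WBcel235 were used, while the annotation used for counting and its strand setting are not given in the sources used here. Sequencing batches of these samples are not named, so no batch term was fitted. The count column of 1 day 12 sample carries a replicate number that no label has, and it was used for its day only. A further entry for a transgene, at most 0.00124% of the counts of a sample, was left out.

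Members, gene lists and the days of the contrasts with days 8 and 9 were chosen with earlier results of these data known. After TMM scaling, edgeR 4.0.16 (glmQLFit and glmQLFTest, R 4.3.3) was run over all genes, with Benjamini-Hochberg adjustment over all genes tested and a threshold of 0.01. Days 2 to 12 (31 samples) were modelled by an orthogonal cubic polynomial in age over genes with at least 5 counts in 75% of samples. Day pairs were contrasted with day as a factor in the same samples, and both contrasts share days 8 and 9. Day 2 was compared with day 1 in their 6 samples, over genes with at least 5 counts in at least 3. The biomarker term of the study's model does not apply to these samples. Standard errors are the absolute log2 difference divided by the square root of F. The fits were tested on simulated data. Alternatives were size factors and the Wald test of DESeq2 1.42.0, library size alone, other filters, a threshold of 0.05, a joint test, a replicate block, a trend with transcript length, and samples left out. Summaries were made in Python 3.11.15.

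Genes named were those of 4 lists of receptors (orthologs outside nematodes, metabolism, stress, moulting), the 8 steepest in each direction over age with at least 1 CPM and 1 direction in all replicate numbers, up to 8 and 6 in each direction for day 2 against day 1 and for each pair of days, and the 5 highest per kilobase of exon. Counts of 5 or fewer and the set on chromosome I were named after their values were seen. Intervals and floors cover counting error only, since PCR reads are not independent molecules. Values at 5 counts have large counting error.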

Additional observations from a re-analysis of the deposited data

How the results depend on the processing

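Day 2 against day 1 gave 155 nhr genes, and between 83 and 121 when each replicate number was left out, which leaves 4 samples. The change with age gave 130 and, with a replicate left out, at least 110, and days 8 and 9 against days 2 and 3 gave 100 and 72 to 88. Days 11 and 12 against days 8 and 9 gave 3 genes in the main analysis, 1 with library size alone, 5 with the DESeq2 Wald test, 9 at a threshold of 0.05 and 0 to 1 with a replicate left out. All other alternatives of the first 3 comparisons stayed within 1.5 times the main count. Without replicate 3 of day 5, 125, 100 and 3 genes were found for the 3 comparisons of days 2 to 12, and without replicate 2 of day 4 the first and last of these gave 130 and 3. Without replicate 3 of day 1, day 2 against day 1 gave 144. These 3 alternatives were chosen after seeing the data.

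Samples with the same replicate number did not deviate together (median correlation -0.0010 over 135 pairs, with 30 over 0.1, against 0.0037 over 270 pairs of different numbers), so the numbers were not taken as pairing. With a replicate block the counts were 133 for age, 134 for day 2 against day 1, 103 and 2.

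Signs turned for a few genes. The linear coefficient of nhr-20 was 0.037 with library size alone, that of nhr-48 was -0.055 with the length trend removed, with and without the replicate block, and that of nhr-66 was -0.11 and -0.11 in these fits, where the main values were not past the threshold. With library size alone the difference between days 8 and 9 and days 2 and 3 was 0.37 for nhr-20, whose main value was not past the threshold. For nhr-28 it was 0.074, while its main value was negative and past the threshold, so here a called direction turned. Of the 44 named genes past the threshold for age, 9 lost the call in at least 1 alternative, as did 17 of 43 for day 2 against day 1, 13 of 36 for days 8 and 9 and 3 of 3 for days 11 and 12. The cause was not tested. Depth limits the genes near 5 counts.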
